A study of Mus musculus with 18 samples.

Results

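The genes followed here make up a tuft cell program: Pou2f3, Hmx2, Tas1r3, Gnat3, Trpm5, Il25, Ltc4s, Avil, Dclk1 and Sh2d6. They were taken by symbol from tables of RPKM (reads scaled to gene length and library size, so that genes can be compared) that hold 23063 genes, and 9 of the 10 listed genes had a value. No level of Sh2d6 is given here, and only its promoter was searched. Bulk RNA-seq was made of thymic epithelium from mice of 6 to 8 weeks, sorted by flow cytometry after the thymi had been digested and enriched for stroma. There were 6 groups of 3 libraries: cortical cells (cTEC) and medullary cells of a lo and a hi gate (mTEClo, mTEChi), each of the genotypes labelled WT (wild type) and Aire KO (KO below). Every sample, WT included, carries the strain label B6.129S2-Airetm1.1Doi/J, that of a mouse line with a targeted Aire allele. The labels do not name the surface protein that the lo and hi gates measure, and they do not say whether the libraries of a group came from separate mice. The p-values therefore measure only the spread between these libraries.

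Tuft cells are rare epithelial cells of the gut, airway and thymus that use the machinery of taste cells to sense their surroundings. A receptor on the cell couples to a taste G protein, phospholipase C releases calcium from stores, the calcium opens the cation channel TRPM5, and the cell answers with interleukin 25, leukotrienes and acetylcholine. The transcription factor POU2F3 is required for the lineage, and in the thymus tuft cells belong to the medulla, where they stand among the medullary cells that take on programs of peripheral tissues. AIRE, a transcriptional regulator of mature medullary cells, drives the expression of many tissue-restricted genes there.

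Between 4.54 and 18.1 gigabases were aligned to genes per library, with both extremes in WT mTEClo. Aire stood at 658 to 693 RPKM in WT and at 1001 to 1126 RPKM in KO mTEChi, and at 7.75 to 12.8 and 16.3 to 33.1 RPKM in WT and KO mTEClo. The tables give 1 value for the whole gene, so this level does not check the genotype labels. The cortical markers (7 genes, among them Psmb11 and Prss16) summed to 474 to 809 RPKM in WT cTEC and to 100 to 123 RPKM in WT mTEClo. They summed to 318 to 383 RPKM in WT mTEChi and to 524 to 618 in KO mTEChi, within the range of WT cTEC. Most of the mTEChi sums came from Ccl25 (means 242 and 479 RPKM), so the sum does not set cTEC apart from mTEChi. Epcam, Krt8 and Krt18 summed to between 1041 and 1827 RPKM. Bulk RNA cannot tell apart a change in the number of tuft cells in a sort from a change in the RNA of each cell.

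In WT, tuft cell genes were highest in mTEClo, intermediate or low in mTEChi and lowest or near lowest in cTEC, and in the KO the mTEClo level was higher still. KO mTEClo was the highest of the 6 groups for 9 of 9 genes, and its 3 libraries did not overlap those of the next group for any of them. The share of all genes with this order was not computed. Every KO mTEClo library was above every WT mTEClo library for 17.2% of the 19451 tested genes. The same held against KO cTEC for 22% and against KO mTEChi for 47.8% of them. Avil was the most abundant of the 9 in each of the 6 groups (mean 403 RPKM in KO mTEClo) and Hmx2 the least abundant (10.8 RPKM there). Below, the values of a group are RPKM in the order of replicates 1, 2 and 3.

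**Figure D1:**
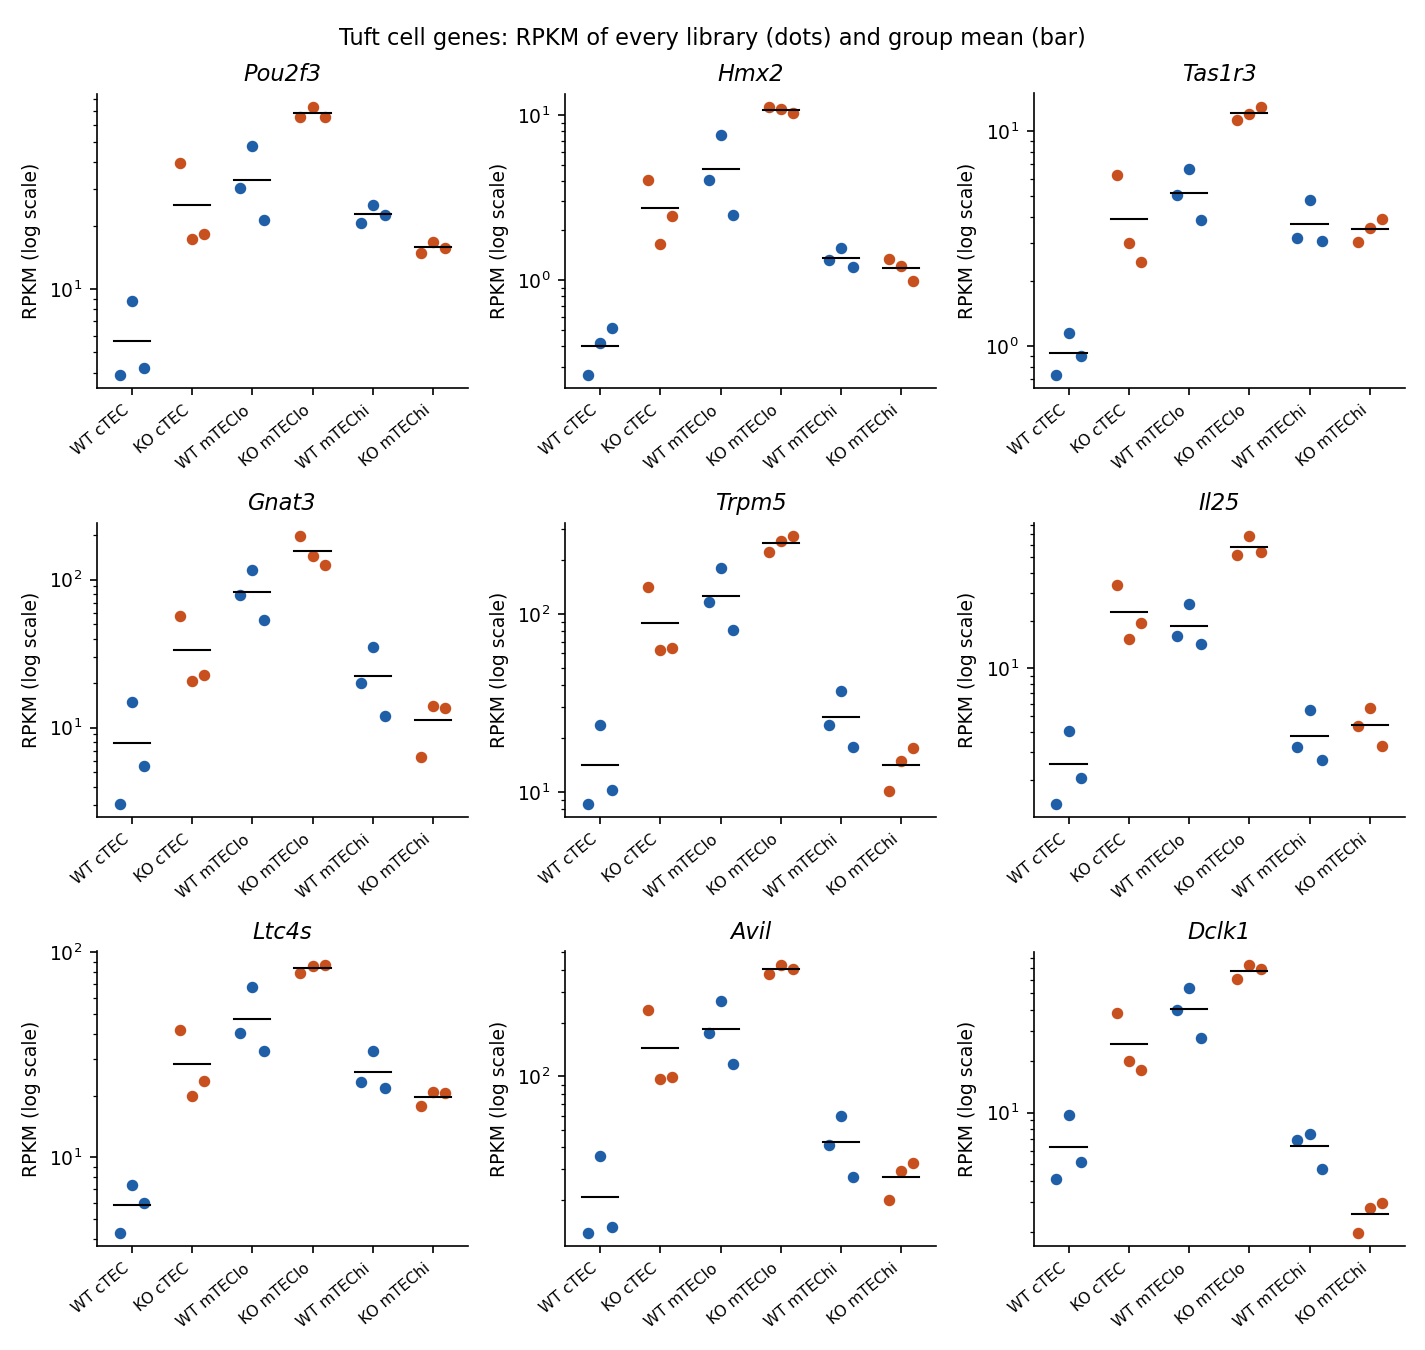
RPKM (log axis) of 9 tuft cell genes, 1 panel per gene, in WT (blue) and KO (orange) libraries of cTEC, mTEClo and mTEChi; each dot is 1 of 3 libraries and the bar is the group mean. The KO mTEClo dots lie above those of every other group in all 9 panels, and the KO cTEC dots lie above the WT cTEC dots.

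Of the regulators, Pou2f3 (chr9:43123939-43205755 in mm10), the master transcription factor of tuft cells, was at 30.4, 47.6 and 21.3 RPKM in WT mTEClo and at 65.9, 73.4 and 66.1 in KO mTEClo. In mTEChi it was at 20.6, 25.0 and 22.5 RPKM in WT and at 14.8, 16.8 and 15.6 in the KO. WT and KO did not overlap in either population: the KO was higher in mTEClo and lower in mTEChi, and WT mTEChi overlapped WT mTEClo. In cTEC, Pou2f3 was at 3.90, 8.81 and 4.20 RPKM in WT and at 39.5, 17.3 and 18.2 in the KO, where all 3 libraries were above all 3 of WT. Hmx2 (chr7:131554062-131556582), which encodes a homeobox factor, was at 4.04, 7.55 and 2.49 RPKM in WT mTEClo and at 11.2, 10.9 and 10.2 in KO mTEClo. It was at 1.32, 1.56 and 1.21 RPKM in WT mTEChi, at 1.33, 1.22 and 0.985 in KO mTEChi, and at 0.267, 0.416 and 0.513 in WT cTEC. The mTEChi libraries of the genotypes overlapped, and KO cTEC, at 4.05, 1.65 and 2.45 RPKM, overlapped WT mTEClo.

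POU factors bind the octamer ATGCAAAT, so the bases upstream of RefSeq gene starts (GRCm38.p6, the build of mm10) were searched for it on both strands, together with the shorter ATGCAAA that the octamer contains. Of the 250-base windows upstream of all genes, 1.60% (526 of 32851) held the octamer and 4.12% held ATGCAAA. Windows were matched for 8 of the 10 listed genes, not for Il25 and Pou2f3. None of their 10 windows held the octamer, and Avil alone held ATGCAAA, at 15 and 115 bases before its start. In the other gene lists described below, 15 of 86 windows held the octamer. Bitter taste receptors gave 7 of these from 31 windows (22.6%), with a median GC content of 36.4%, and 2.98% of all windows with a GC content under 45% held it. Of the windows of 1810046K07Rik, now named Pou2af2 and known as a coactivator of POU2F3, that shown held the octamer on each strand. The ATGCAAA or TTTGCAT inside these matches begins at 86 and at 54 bases before the gene start. The sequences of Trpm5, which has no match, of Avil, of 1810046K07Rik and of the bitter receptor gene Tas2r108 show these cases, with matches to ATGCAAA (Avil) or to the octamer (the others) on either strand in capitals. A match describes these letters and is not a shown binding site.
Trpm5 (chr7:143094643-143094892, minus strand), the 250 bases before the start: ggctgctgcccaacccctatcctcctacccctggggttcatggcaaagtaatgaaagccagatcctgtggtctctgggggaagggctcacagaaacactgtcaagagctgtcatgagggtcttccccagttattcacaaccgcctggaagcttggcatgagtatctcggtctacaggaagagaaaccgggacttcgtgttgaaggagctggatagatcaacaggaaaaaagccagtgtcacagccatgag
Avil (chr10:127000459-127000708, plus strand), the 250 bases before the start: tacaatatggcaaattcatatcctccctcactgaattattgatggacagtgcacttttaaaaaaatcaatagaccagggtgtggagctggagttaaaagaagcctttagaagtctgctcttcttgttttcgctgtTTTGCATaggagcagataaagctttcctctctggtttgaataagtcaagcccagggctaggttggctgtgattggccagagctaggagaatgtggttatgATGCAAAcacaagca
1810046K07Rik (chr9:51328919-51329168, minus strand), the 250 bases before the start: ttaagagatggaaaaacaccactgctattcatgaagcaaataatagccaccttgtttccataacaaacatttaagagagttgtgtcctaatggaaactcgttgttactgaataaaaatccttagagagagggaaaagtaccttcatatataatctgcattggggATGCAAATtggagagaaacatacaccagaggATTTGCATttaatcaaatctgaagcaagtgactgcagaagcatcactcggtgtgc
Tas2r108 (chr6:40493342-40493491, plus strand), the first 150 bases of the window: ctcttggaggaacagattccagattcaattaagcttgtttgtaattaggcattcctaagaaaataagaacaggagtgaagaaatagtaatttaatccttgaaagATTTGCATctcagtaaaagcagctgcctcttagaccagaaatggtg

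Among the genes of taste sensing, Tas1r3 (chr4:155859304-155863353), the shared subunit of the sweet and umami receptors, was at 5.04, 6.64 and 3.84 RPKM in WT mTEClo and at 11.3, 12.0 and 13.0 in KO mTEClo. In mTEChi it was at 3.19, 4.76 and 3.07 RPKM in WT and at 3.05, 3.54 and 3.89 in the KO, and in cTEC at 0.733, 1.14 and 0.899 in WT and 6.24, 3.01 and 2.45 in the KO. WT mTEChi and WT mTEClo overlapped, as did the mTEChi libraries of both genotypes, and WT cTEC was below every other group. Gnat3 (chr5:17962570-18019668), which encodes gustducin, the alpha subunit of the taste G protein, was at 79.1, 116 and 53.3 RPKM in WT mTEClo and at 198, 145 and 126 in KO mTEClo. Its mTEChi values were 20.1, 35.1 and 11.9 RPKM in WT and 6.31, 14.0 and 13.6 in the KO, and its cTEC values were 3.06, 14.9 and 5.54 in WT and 56.5, 20.7 and 22.8 in the KO. On the log2 scale Gnat3 had the widest spread of the 9 within groups, with the largest SE, and its mTEChi values in the KO overlapped those in WT. Trpm5 (chr7:143071529-143094642), the cation channel that calcium opens, was at 117, 182 and 81.5 RPKM in WT mTEClo and at 222, 257 and 275 in KO mTEClo. It was at 23.9, 36.9 and 17.9 RPKM in WT mTEChi, 10.1, 14.9 and 17.7 in KO mTEChi, 8.57, 23.7 and 10.2 in WT cTEC, and 141, 62.9 and 64.5 in KO cTEC. The lowest WT mTEChi library stood just above the highest KO mTEChi library, and KO mTEChi overlapped WT cTEC.

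Of the output genes, Il25 (chr14:54932695-54935836), the cytokine by which tuft cells alert type 2 lymphocytes, was at 16.0, 25.4 and 14.3 RPKM in WT mTEClo and at 51.6, 68.2 and 53.7 in KO mTEClo. In mTEChi it was at 3.19, 5.47 and 2.66 RPKM in WT and at 4.37, 5.64 and 3.25 in the KO, and in cTEC at 1.41, 4.02 and 2.05 in WT and at 33.7, 15.4 and 19.2 in the KO. Il25 was the 1 gene of the 9 whose KO cTEC mean (22.8 RPKM) was above its WT mTEClo mean (18.6 RPKM), and those libraries overlapped. Ltc4s (chr11:50236472-50238471), which encodes leukotriene C4 synthase, was at 40.5, 67.7 and 32.9 RPKM in WT mTEClo and at 79.3, 85.3 and 86.7 in KO mTEClo. It was at 23.2, 32.9 and 21.9 RPKM in WT mTEChi, 17.7, 20.7 and 20.6 in KO mTEChi, 4.29, 7.33 and 6.02 in WT cTEC, and 41.9, 20.0 and 23.5 in KO cTEC. The genotypes did not overlap in any of the 3 populations, with the KO higher in cTEC and mTEClo and lower in mTEChi.

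The last pair are genes of the cell body. Avil (chr10:127000709-127020994), which encodes advillin, an actin-bundling protein of the tuft cell apex, was at 177, 265 and 117 RPKM in WT mTEClo and at 378, 426 and 406 in KO mTEClo. It was at 41.3, 59.7 and 27.2 RPKM in WT mTEChi, 20.1, 29.2 and 32.3 in KO mTEChi, 13.1, 35.6 and 14.2 in WT cTEC, and 237, 96.2 and 99.8 in KO cTEC. The KO mTEChi libraries overlapped both WT mTEChi and WT cTEC. Dclk1 (chr3:55242526-55539068), a microtubule-associated kinase widely used as a tuft cell marker, was at 39.7, 53.5 and 27.1 RPKM in WT mTEClo and at 60.4, 73.1 and 69.2 in KO mTEClo. Its values were 6.94, 7.55 and 4.71 RPKM in WT mTEChi, 1.98, 2.78 and 2.94 in KO mTEChi, 4.12, 9.71 and 5.11 in WT cTEC, and 38.0, 20.0 and 17.7 in KO cTEC. It was the 1 gene of the 9 with its lowest group in KO mTEChi, where no library reached the lowest of WT cTEC.

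The first comparison asks how the Aire genotype goes with tuft cell genes in mTEClo. Here Il25, Tas1r3, Hmx2, Pou2f3 and Ltc4s rose in the KO, and Trpm5, Avil, Dclk1 and Gnat3 had higher means that did not pass the test. Every KO library was above every WT library for 9 of 9 genes, while 17.2% of the 19451 tested genes showed this. Il25 had the largest difference, a log2 fold change of 1.67 on the scale of RPKM + 0.1 (SE 0.37, limma adjusted p = 0.0066), and it rose 3.18-fold. Hmx2 rose by 1.32 (adjusted p = 0.016), Tas1r3 by 1.24 (adjusted p = 0.0080), Pou2f3 by 1.12 (adjusted p = 0.029) and Ltc4s by 0.90 (adjusted p = 0.037). The values of the others were 1.19 for Avil (adjusted p = 0.063), 1.06 for Trpm5 (adjusted p = 0.085), 0.80 for Dclk1 (adjusted p = 0.11) and 0.96 for Gnat3 (adjusted p = 0.26). The 5 of 9 called stand beside 7.93% of all tested genes called higher and 8.04% called lower, and the tuft cell genes' median of 1.12 stands beside -0.04 over all genes. Without WT mTEClo replicate 3, the deepest library and the lowest of its group for all 9 genes, only Il25 kept its call (1 of 9), and without WT mTEClo replicate 2, the shallowest and the highest, 7 of 9 were called. Pou2f3 and Ltc4s each lost their call when any 1 library other than WT mTEClo replicate 2 was left out, and Hmx2 lost it without replicate 1 of either genotype or WT replicate 3. Ltc4s also lost it when values were centred on housekeeping genes (adjusted p = 0.059), and Hmx2 (0.071), Ltc4s (0.072) and Pou2f3 (0.052) did when only the mTEClo libraries were fitted.

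Markers of other cells were set beside this. In KO mTEClo the 9 macrophage and dendritic cell markers summed to 69.9 to 139 RPKM, against 27.1 to 34.5 in WT, and 2 of the 9 were called higher. Lyz2 alone gave 63.2 to 130 RPKM of this in the KO, and the other 8 markers summed to 6.68 to 9.28 RPKM in KO and 4.43 to 5.98 in WT mTEClo. The 8 mast cell markers summed to 49.1 to 59.1 RPKM in KO and 19.2 to 32.2 in WT mTEClo, and of these Kit and Hdc were called higher. Tpsb2, with a mean of only 0.0968 RPKM in WT mTEClo, was called lower (-0.96, limma adjusted p = 0.0018). The other 6, Mcpt4, Tpsb2, Cma1, Ms4a2, Fcer1a and Cpa3, summed to 0.252 to 0.534 RPKM in WT and to at most 0.155 RPKM in KO mTEClo, where 15 of 18 values were listed at 0. Of the 6 medullary markers with a value, 0 were higher and 1, Krt5, was lower (limma adjusted p = 0.049). The part of depth or of these other cells in the difference of tuft cell genes was not tested.

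**Figure D2:**
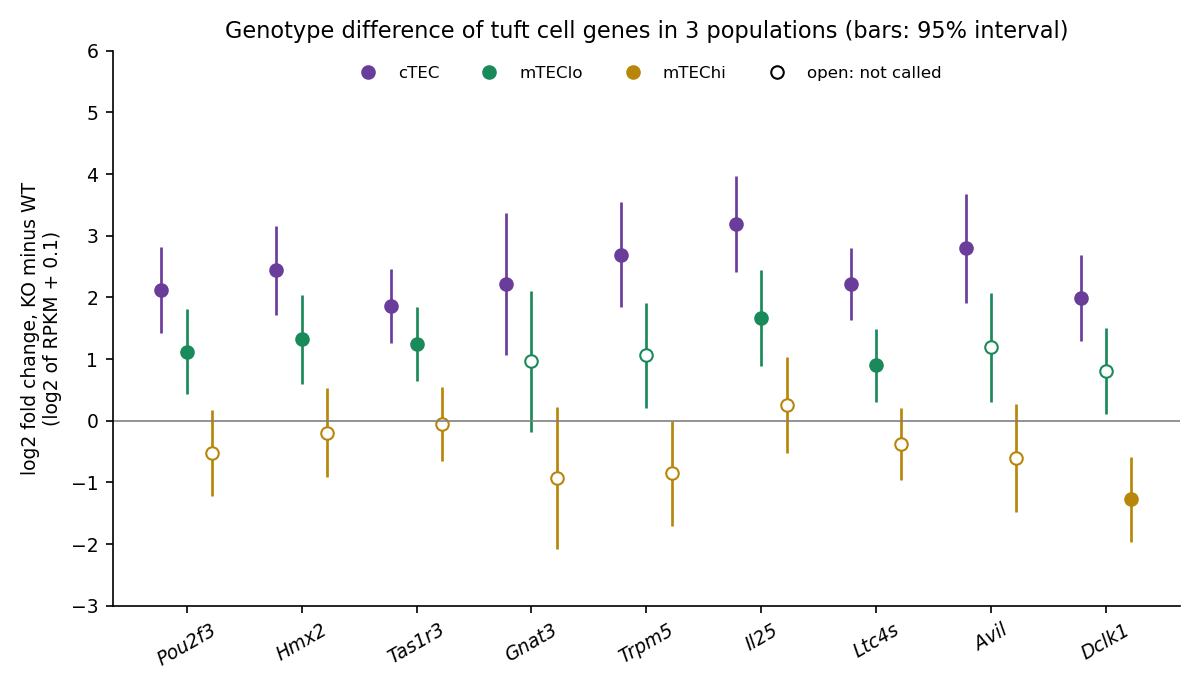
Difference between KO and WT (log2 of RPKM + 0.1, with 95% intervals) of 9 tuft cell genes in cTEC (purple), mTEClo (green) and mTEChi (ochre), 3 libraries per group; filled points were called at a limma adjusted p under 0.05. All 9 points are filled in cTEC (1.87 to 3.19), 5 in mTEClo and 1, Dclk1, in mTEChi.

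In cTEC the tuft cell genes were higher in the KO too; whether the difference is larger than in mTEClo was not tested. All 9 with a value rose in the KO, beside 13.3% of all tested genes called higher and 6.76% called lower, and all 9 were without overlap, beside 15.2% of all genes. Il25 rose 9.12-fold (log2 fold change 3.19, SE 0.37, limma adjusted p = 2.5e-05), Avil 6.96-fold (2.80, adjusted p = 0.00020) and Trpm5 6.47-fold (2.69, adjusted p = 0.00020). Tas1r3 (1.87, adjusted p = 0.00024) and Dclk1 (1.99, adjusted p = 0.00046) rose least, and Gnat3 (2.22) had the largest adjusted p of 0.0084. The median of the 9 was 2.22, against -0.01 over all tested genes. These calls rest on a spread estimated over the 6 groups. When the cTEC libraries were fitted alone, limma called 0 of the 9 (adjusted p = 0.083 to 0.19), 9 of 9 had an unadjusted p under 0.05, and 12 genes were called higher and 6 lower in the whole table. Without WT cTEC replicate 1, the lowest library for 9 of 9 genes, Gnat3 lost its call (adjusted p = 0.053).

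Medullary genes rose in the same libraries. Aire was at 2.09, 3.95 and 7.39 RPKM in WT and at 95.6, 35.9 and 27.0 in KO cTEC, Fezf2, a regulator of medullary antigen expression, at 4.35, 7.02 and 5.74 and at 31.9, 19.2 and 13.4, and the costimulatory gene Cd80 at 1.50, 3.98 and 5.76 and at 21.3, 8.81 and 6.15. KO cTEC replicate 1, the highest of its group for Aire, Fezf2 and Cd80, was also the highest for all 9 tuft cell genes. Of the 6 medullary markers with a value, 4 were called higher, Aire, Fezf2, Cd80 and Tnfrsf11a. Most of the summed level of the 6 came from Krt5, which was not called (adjusted p = 0.17) and was at 874, 1041 and 1054 RPKM in the KO, lowest in replicate 1, and at 795, 759 and 869 in WT. The 7 cortical markers summed to 460 to 797 RPKM in the KO and 474 to 809 in WT, with 0 called by limma. KO replicate 1 was the lowest cTEC library of both genotypes for Psmb11, Prss16 (170 RPKM), Ly75 and Cxcl12 (62.4 RPKM), but not for Dll4, Ccl25 and Foxn1. Of the 9 macrophage and dendritic markers Lyz2 and Cd68 were called higher. Lyz2 was at 96.1 to 144 RPKM in the KO and 19.3 to 54.3 in WT, while the other 8 summed to 9.77 to 23.8 RPKM in the KO and 6.38 to 17.7 in WT, with overlap. Of the 8 mast cell markers Kit and Hdc were called higher, Hdc being at 17.1 to 57.5 RPKM in the KO and 2.41 to 5.54 in WT, and the other 6 summed to at most 0.334 RPKM in the KO and 0.264 in WT. The part of medullary or other cells in the cTEC difference of tuft cell genes was not tested.

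**Figure D3:**
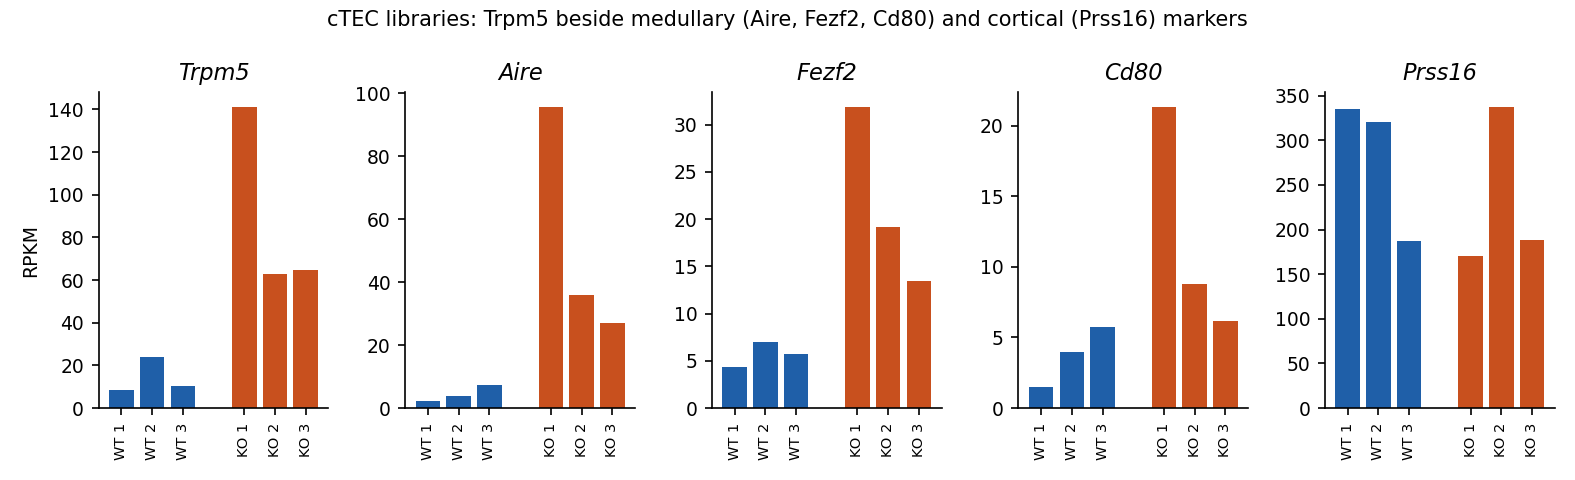
RPKM (bars, linear axes from 0) of Trpm5, of the medullary genes Aire, Fezf2 and Cd80 and of the cortical gene Prss16 in each of the 3 WT (blue) and 3 KO (orange) cTEC libraries. KO replicate 1 has the highest bar for Trpm5 (141 RPKM), Aire, Fezf2 and Cd80, while the Prss16 bars of the genotypes overlap.

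In mTEChi, Dclk1 fell in the KO and no other tuft cell gene passed the test. Dclk1 was at 6.40 ± 1.49 RPKM (SD, n = 3) in WT and 2.57 ± 0.513 (SD, n = 3) in the KO, and fell by 1.28 on the log2 scale (SE 0.33, limma adjusted p = 0.0030). That 1 of 9 stands beside 52.8% of all tested genes called lower and 9.57% called higher. The KO libraries were below the WT libraries without overlap for Dclk1, Trpm5, Pou2f3 and Ltc4s, 4 of 9, where 60.1% of all genes were. Log2 differences of the 8 genes without a call ran from -0.93 for Gnat3 to 0.25 for Il25, and the median of the 9 was -0.52, beside -0.39 over all tested genes. Quantile normalization, which moved the median of all genes to 0.08, turned the differences of Tas1r3 from -0.05 to 0.68 and of Hmx2 from -0.20 to 1.29, called Il25, Tas1r3 and Hmx2 higher and kept Dclk1 lower. Of all tested genes it called 6064 higher and 4808 lower. With only the mTEChi libraries fitted, 4 of 9 were called lower, among them Pou2f3 (-0.52, adjusted p = 0.00059). That fit called 11212 of the 19451 tested genes lower and 2483 higher. Markers of other cells also differed between these libraries. The 6 mast cell markers other than Kit and Hdc summed to 25.6 to 33.8 RPKM in WT and to 0.128 to 0.236 in KO mTEChi, where 11 of 18 values were listed at 0, and all 6 fell, while Kit rose and Hdc was at 269 to 294 RPKM in WT and 442 to 543 in the KO (adjusted p = 0.067). Of the 9 macrophage and dendritic markers 6 fell, with Emr1 (-4.12) and Itgam (-2.92) among them, Cd68 rose (0.93), and Lyz2 was at 307 to 336 RPKM in WT and 330 to 360 in the KO. The 7 neural markers summed to 32.2 to 35.2 RPKM in WT and 10.3 to 10.8 in the KO, and 6 of them fell. Bulk RNA does not tell whether these marker RNAs came from other cells or from the medullary cells themselves. Neither their source nor their part in the mTEChi values of tuft cell genes was tested.

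The genotype difference itself differed between the populations. In mTEChi it was lower than in mTEClo for 8 of 9 genes, beside 40.9% of all tested genes (6.01% were higher), and lower than in cTEC for 9 of 9, beside 44.8% (5.13% were higher). Against mTEClo, Dclk1 (-2.08, SE 0.46, limma adjusted p = 0.0016) and Trpm5 (-1.91, SE 0.57, adjusted p = 0.011) differed most among the genes called, and Gnat3 missed the threshold (-1.89, adjusted p = 0.053). Against cTEC the values ran from -1.92 for Tas1r3 to -3.54 for Trpm5. The medians over all tested genes were -0.39 and -0.44. Il25 lost its call against mTEClo without WT mTEClo replicate 1 or 3, WT mTEChi replicate 2, KO mTEClo replicate 2, or KO mTEChi replicate 1 or 3, and Avil without WT mTEClo replicate 3, WT mTEChi replicate 2 or KO mTEChi replicate 1. After quantile normalization 5 of 9 genes were called against mTEClo, the value of Hmx2 going from -1.52 to -0.0055, and Hmx2 (-0.54) and Tas1r3 (-0.74) lost their calls against cTEC. Of all tested genes, 3550 were then called lower and 4559 higher against mTEClo. Both contrasts use the same mTEChi libraries.

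The next comparison is between the populations of 1 genotype. In WT, the tuft cell genes fell from mTEClo to mTEChi, except Tas1r3 (log2 difference -0.48, limma adjusted p = 0.14) and Pou2f3 (-0.47, adjusted p = 0.21). The 7 of 9 called lower stand beside 31.1% of all tested genes called lower and 41.6% called higher. Their libraries did not overlap, with mTEClo above, as for 34.4% of all genes, while 44.1% were without overlap the other way. Dclk1 was 6.08-fold lower in mTEChi (-2.60, SE 0.33, adjusted p = 2.7e-06), Il25 4.90-fold (-2.29), Trpm5 4.77-fold (-2.25), Avil 4.32-fold (-2.11) and Gnat3 3.85-fold (-1.94). Hmx2 (-1.58) and Ltc4s (-0.81, adjusted p = 0.015) fell less, and Ltc4s lost its call without WT mTEClo replicate 2 (-0.51) or WT mTEChi replicate 3 (-0.70). In the KO all 9 fell from mTEClo to mTEChi, beside 43.7% of all genes called lower, and without overlap, beside 47.8% with mTEClo above and 26.7% with it below. Dclk1 was 25.6-fold lower (-4.68, SE 0.33, adjusted p = 3.1e-09), Trpm5 17.9-fold (-4.16), Avil 15.0-fold (-3.91), Gnat3 14.3-fold (-3.84) and Il25 13.0-fold (-3.70). Tas1r3 (3.41-fold, -1.77), Ltc4s (4.25-fold, -2.09) and Pou2f3 (4.33-fold, -2.11) fell least. The medians of the 9 were -1.94 in WT and -3.70 in the KO, beside 0.12 and -0.22 over all genes.

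Against cTEC, mTEClo was higher for all 9 genes in both genotypes. In WT this stands beside 24.6% of all tested genes, with no overlap for any of the 9, beside 29.3% of all genes. There Gnat3 was 12.2-fold higher (log2 difference 3.61, limma adjusted p = 5.2e-05), Trpm5 9.35-fold, Avil 9.31-fold and Tas1r3 5.09-fold (2.35), the smallest. In the KO, beside 19.3% of all genes, with 22% without overlap above and 18.7% below, the differences ran from 1.41 for Il25 to 2.35 for Gnat3, with a median of 1.61 against 2.94 in WT. WT mTEChi was higher than WT cTEC for 7 of 9 genes, beside 46.6% of all genes called higher and 31.8% called lower: Ltc4s (2.14), Pou2f3 (2.09), Tas1r3 (1.87), Gnat3 (1.67), Hmx2 (1.58), Avil (1.11) and Trpm5 (0.97, adjusted p = 0.036). Il25 (0.64) and Dclk1 (0.09) were not called. Ltc4s, Pou2f3, Tas1r3 and Hmx2 were without overlap, beside 47.4% of all genes. The libraries of Avil, Trpm5 and Gnat3 overlapped, and these 3 lost their calls without WT cTEC replicate 1 or without WT mTEChi replicate 2. Trpm5 lost it also without WT cTEC replicate 3 or WT mTEChi replicate 1 and Avil without WT cTEC replicate 3, while Il25 gained a call without WT cTEC replicate 2 (1.04). The call of Trpm5 was also lost when values were centred on housekeeping genes (limma adjusted p = 0.060) and when only the compared groups were fitted (0.054). The value of Hmx2 turned to -0.27 after quantile normalization. In the KO the order was turned: mTEChi was lower than cTEC for 6 of 9 genes, beside 41.2% of all genes called lower and 26.6% called higher, from -3.18 for Dclk1 to -1.06 for Hmx2. Pou2f3 (-0.56), Ltc4s (-0.46) and Tas1r3 (-0.04) were not called. The 7 genes other than Tas1r3 and Ltc4s were without overlap, beside 41% of all genes. Without KO cTEC replicate 1, Gnat3 (adjusted p = 0.12) and Hmx2 (adjusted p = 0.066) lost their calls, and Gnat3 lost it also without KO mTEChi replicate 1 (adjusted p = 0.11). Quantile normalization (limma adjusted p = 0.054) and a fit of only the compared groups (0.052) also took the call from Gnat3. The KO comparisons with cTEC use the libraries in which Aire, Fezf2 and Cd80 were higher than in WT, as given above. The part of this in the KO differences was not tested.

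The mTEChi level as a share of the mTEClo level ranged widely over the 9 genes. As a share of the mTEClo mean of the same genotype, the mTEChi mean was 16.0% for the lowest gene, 27.1% for the median and 71.0% for the highest in WT, and 3.80%, 7.64% and 28.9% in the KO. To describe this, each gene was divided by Trpm5 in the same library, a choice made after the values were seen. Relative to Trpm5, Pou2f3 was higher in mTEChi than in mTEClo by 1.79 in WT and 2.05 in the KO on the log2 scale, Tas1r3 by 1.78 and 2.40, Ltc4s by 1.45 and 2.08, and Hmx2 by 0.68 and 1.07. Dclk1 was lower relative to Trpm5, with differences of -0.35 and -0.51, and Avil differed by 0.14 and 0.26. For these 6 genes the libraries did not overlap in either genotype, and Il25 and Gnat3 overlapped in both. The exact two-sided permutation test gave p = 0.1 for the 12 differences without overlap, the smallest that 3 against 3 libraries allow, and 0.13 after adjustment over the 16 tests, so none of these differences passed a test. The mean log2 ratio of Pou2f3 to Trpm5 was -0.15 in WT and 0.18 in KO mTEChi, and -1.93 and -1.87 in mTEClo.

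**Figure D4:**
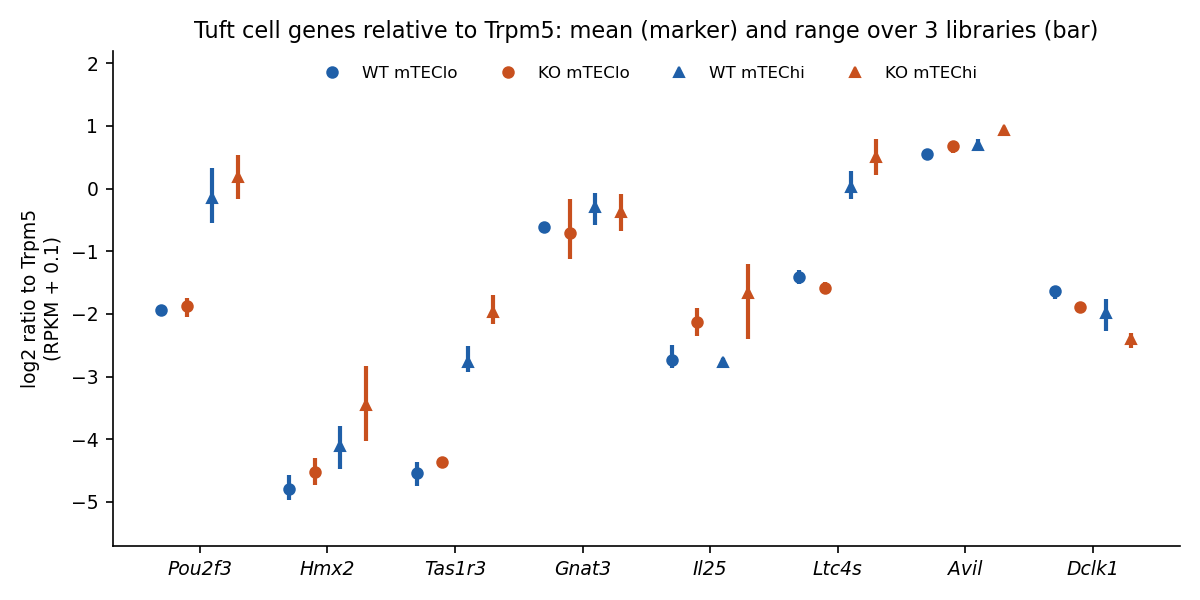
Log2 ratio of 8 tuft cell genes to Trpm5 (RPKM + 0.1) in mTEClo (circles) and mTEChi (triangles) of WT (blue) and KO (orange); the marker is the mean and the bar the range of 3 libraries. The triangles of Pou2f3, Tas1r3, Ltc4s and Hmx2 lie above the circles in both genotypes, and those of Dclk1 lie below them.

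In the WT groups and KO cTEC 1 library was the highest of its group for most tuft cell genes. In each of the 6 groups 1 library was the lowest for most of them. WT mTEClo replicate 2 was the highest library of its group for 9 of 9 genes and replicate 3 the lowest for 9 of 9, and the summed RPKM of the 9 were 508, 770 and 354. WT mTEChi replicate 2 was the highest for 9 of 9 and replicate 3 the lowest for 8, WT cTEC replicate 2 the highest for 8 and replicate 1 the lowest for 9, and KO cTEC replicate 1 the highest for 9. The highest library of all 3 WT groups thus carried the number 2. In KO mTEClo and KO mTEChi no library was the highest for more than 4 of 9, and replicate 1 was the lowest for 7 in each. Over the 18 libraries, Pearson's r between pairs of the 9 genes ran from 0.68 to 0.996 with a median of 0.92 (36 pairs), and for deviations from the group means from 0.58 to 0.99 with a median of 0.86. These points share the libraries, their depth and, for the first set, the group means, so they are a description.

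The genes most like each of the 9 were sought among 14784 genes over the same 18 libraries, with predicted genes left out. For Trpm5 they included Avil (r = 0.996), Chat, which encodes the enzyme that makes acetylcholine, Sh2d7, Lrmp, Pik3r5, Ly6g6f, Vav1, Srpx2 and the carbonic anhydrase gene Car7 (r = 0.991). Il25 went most closely with the cyclooxygenase gene Ptgs1 (0.986), with Bmx and with Alox5ap, the partner of 5-lipoxygenase. Pou2f3 went with the epithelial factor Ehf (0.993), Adcy5 and Fut2, and Gnat3 with Plcb2 (0.990), the phospholipase of taste signalling, the bitter receptor Tas2r108 and Fxyd6. Dclk1 was closest to Nrgn (0.989), Rgs2 and Xrcc6bp1, Hmx2 to Plcg2 (0.981), Anxa4 and Tox3, and Tas1r3 to Ltc4s (0.981), B4galt6 and Espn. Ltc4s was closest to Atp2a3 (0.991), Espn and Gnb3, and Avil to Lrmp (0.997), Car7 and Trpm5. Of the 31 different genes found in this way, 17 stand in the gene lists used here, with Avil, Trpm5 and Ltc4s of the 9 themselves among them. The share of the 14784 genes that stand in these lists was not computed. The lists were chosen with earlier results of these data known, so this count is only a description.

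The other genes of the program were described by lists. Their counts are to be read beside all tested genes, of which 7.93% were called higher and 8.04% lower in KO mTEClo, 13.3% and 6.76% in KO cTEC, 9.57% and 52.8% in KO mTEChi, and 41.6% and 31.1% from WT mTEClo to WT mTEChi. Of 8 taste transduction genes with a value, 1 rose in KO mTEClo, the calcium release channel gene Itpr3 (log2 difference 0.46, limma adjusted p = 0.0061), and Gng13, the gamma subunit partner of gustducin, was the most abundant without a call (1.33, adjusted p = 0.058). In KO cTEC 3 rose, and in KO mTEChi 4 of 8 fell, a share near the 52.8% of all genes, among them Plcb2 (-1.13, adjusted p = 0.027) and the sweet receptor gene Tas1r2 (-1.52), which had a highest group mean of 0.262 RPKM. From WT mTEClo to WT mTEChi, Gng13 (-1.79) and Plcb2 (-1.61) fell with 1 other gene, and Itpr3 (0.88) and Tas1r2 (1.41) rose. Of 10 regulators, 6 rose and 0 fell in KO mTEClo. Gm684, now named Pou2af3 and known as a POU2F3 coactivator, went from 21.4, 23.7 and 15.4 RPKM to 47.9, 47.6 and 42.1 (1.20, adjusted p = 0.00073). 1810046K07Rik was at 39.4, 60.3 and 26.0 RPKM in WT and at 97.4, 119 and 108 in KO mTEClo (1.44, adjusted p = 0.023). Hmx3, the neighbour and paralog of Hmx2, rose in KO mTEClo (1.44, adjusted p = 0.0055) and, unlike Hmx2, was called in KO mTEChi, from 5.30, 6.51 and 5.16 RPKM to 17.1, 17.5 and 16.0 (1.57, adjusted p = 0.00035). Whether Hmx2 and Hmx3 differ in this was not tested. Ascl2, a basic helix-loop-helix factor, rose in KO mTEClo (0.95) and fell in KO mTEChi (-2.33, adjusted p = 7.6e-07).

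Among 14 genes of eicosanoid and type 2 signalling, 8 rose and 0 fell in KO mTEClo, with Hpgds, the prostaglandin D synthase gene (1.62, limma adjusted p = 0.0023), Tslp, a cytokine gene (1.59), Ptgs1 (1.42) and the alarmin gene Il33 (0.83) having the smallest adjusted p, and Il13ra1 the most abundant without a call (-0.15). In KO cTEC 10 rose and 1 fell. In KO mTEChi 3 rose, among them the inducible cyclooxygenase gene Ptgs2 (1.24) and Il4ra (0.45), and 2 fell, Il33 (-3.38) and Tslp (-2.49). From WT mTEClo to WT mTEChi 6 fell, among them the lipoxygenase gene Alox5 (-2.26), and 4 rose, among them Ptgs2 (3.67) and Pla2g4a (1.68), both of which are used in many cell types. In the list of cytoskeleton and signalling genes, 23 had a value, of which 11 rose and 0 fell in KO mTEClo and 18 rose in KO cTEC. Matk (1.65), the succinate receptor gene Sucnr1 (1.43), the phosphatase gene Ptpn6 (0.90) and Cbr3 (0.66) had the smallest adjusted p in KO mTEClo. In KO mTEChi 9 of these 23 fell and 2 rose, with Siglec5 (-2.79) and Ffar3 (-2.24) among the fallen and Krt18 (0.59), a keratin of simple epithelia, among the risen. From WT mTEClo to WT mTEChi 16 of 23 fell, with Nrgn (-2.64) and Sh2d7 (-2.39) among them.

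Bitter taste receptors, the Tas2r genes by which taste and tuft cells detect bitter compounds, were also highest in KO mTEClo. Of 35 genes with a value, 33 had their highest group mean in KO mTEClo. In KO mTEClo 26 of 35 had a group mean of at least 1 RPKM, against 20 in WT mTEClo, 15 in KO cTEC, 9 in WT mTEChi and 6 each in WT cTEC and KO mTEChi. The shares of all genes highest in KO mTEClo, or at 1 RPKM or more in each group, were not computed. Their summed RPKM were 246 to 334 in KO mTEClo, 73.5 to 173 in WT mTEClo, up to 113 in KO cTEC, 16.7 to 43.5 in WT mTEChi, 11.4 to 20.1 in KO mTEChi and 6.20 to 27.4 in WT cTEC. Of the 33 tested, 8 rose and 0 fell in KO mTEClo, beside 7.93% of all genes called higher and 8.04% lower, among them Tas2r140 (2.01, limma adjusted p = 0.0059), Tas2r125 (1.53) and Tas2r130 (1.46). Tas2r108, which had the highest mean in mTEClo of both genotypes, was at 12.6, 20.0 and 8.62 RPKM in WT and at 28.5, 24.3 and 22.9 in KO mTEClo, without overlap and without a call (0.95, adjusted p = 0.16). In KO cTEC 13 rose, beside 13.3% of all genes, and in KO mTEChi, beside 52.8% called lower, Tas2r108 (-1.28) and Tas2r107 (-1.34) fell. From WT mTEClo to WT mTEChi 29 of 33 fell, beside 31.1% of all genes, with the smallest adjusted p for Tas2r138 (-3.22, adjusted p = 5.4e-06). Close paralogs in this family may share reads, which these tables cannot separate.

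**Figure D5:**
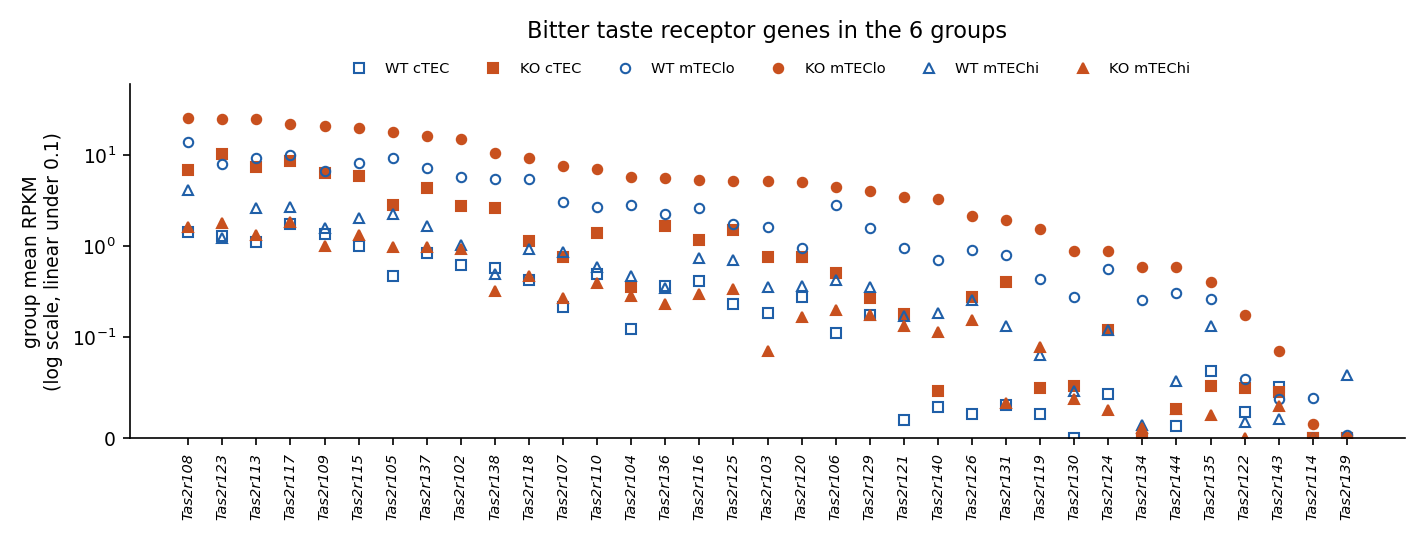
Group mean RPKM (log axis, linear under 0.1) of 35 bitter taste receptor genes in the 6 groups, WT in open blue and KO in filled orange symbols, ordered by the KO mTEClo mean. The KO mTEClo circles are the highest symbol for 33 of the 35 genes.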

How the data were processed

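For each of the 18 libraries, from mouse thymic epithelial cells, the authors deposited RPKM and a signal, the aligned bases per gene. The build mm10 and CASAVA 1.8.2 are named per the submitters' processing notes; how the aligner was set and which annotation was used is not given in the sources used here. The deposited RPKM were not rescaled. The aligned bases served only as depth; they are not read counts, so no count test or counting interval was used. The 19451 genes that reached 0.1 RPKM in 3 or more libraries were tested on log2(RPKM + 0.1) with limma 3.58.1 in R 4.3.3 (6 group means, eBayes with a trend), after a check on simulated data, and called at a Benjamini-Hochberg adjusted p under 0.05 over all tested genes. The 11 comparisons were KO minus WT per population, populations within a genotype and differences between genotype effects. Comparisons share libraries, so their lists of genes are not independent. Named are all members with a value. From each other list, for KO minus WT in mTEChi and mTEClo and for WT mTEChi minus mTEClo, up to 4 called genes with the smallest adjusted p and the most abundant uncalled gene could be named, as could paralogs by level. Also named are the 10 genes most like Trpm5 and the 3 most like each other member, except 1 gene that is not reported here; other genes were chosen after their values were seen. Members and lists were chosen with earlier results of these data known. Promoter sequences are from RefSeq (GRCm38.p6). Listed genes without an RPKM value enter no comparison, and only their promoters were searched where RefSeq gave a window. Replicate numbers were checked for pairing by the correlation of deviations from the group means between same-numbered libraries. It was over 0.1 for all 3 numbers between WT cTEC and WT mTEClo (0.11 to 0.17), in no other pair of groups for all 3, above 0 for 18 of 18 pairs within a genotype and for 7 of 27 across genotypes. The labels do not say what a number marks. A block within each genotype was therefore added after the data were seen. Alternatives were other pseudocounts, filters, scalings and variance models, fits of single comparisons, a replicate block and leaving out each library.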

Additional observations from a re-analysis of the deposited data

Results flagged for a closer look

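The difference between KO and WT was tested to differ between mTEChi and another population for the following genes, by an interaction contrast in limma. The log2 difference in mTEChi minus that in cTEC was as follows: Trpm5 -3.54, Avil -3.40, Dclk1 -3.27, Gnat3 -3.15, Il25 -2.93, Pou2f3 -2.64, Hmx2 -2.63, Ltc4s -2.59 and Tas1r3 -1.92. For mTEChi minus mTEClo the values were Dclk1 -2.08, Trpm5 -1.91, Avil -1.80, Pou2f3 -1.65, Hmx2 -1.52, Il25 -1.41, Tas1r3 -1.29 and Ltc4s -1.28. Of all tested genes, 44.8% were called lower in the contrast with cTEC and 40.9% in that with mTEClo. After quantile normalization Hmx2 and Tas1r3 were called in neither. KO minus WT alone was called higher for 9 of 9 genes in cTEC, beside 13.3% of all genes, but for 0 when cTEC was fitted alone. In mTEClo it was called higher for 5 of 9, beside 7.93%, not for Dclk1, Trpm5, Avil and Gnat3. In mTEChi KO minus WT was negative but for Il25, and only that of Dclk1 passed the test. The WT and KO mTEChi libraries enter both sets of values, and the levels of Aire, Fezf2 and Cd80 differ between the cTEC libraries as given above.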

How the results depend on the processing

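Counts are of the 9 tuft cell genes called by limma. With only the groups compared in the fit, the count for KO minus WT fell from 9 to 0 in cTEC and from 5 to 3 in mTEClo, and rose from 1 to 4 in mTEChi. Over all tested genes these fits called 12 higher and 6 lower in cTEC, 1641 and 2043 in mTEClo, and 2483 and 11212 in mTEChi. Quantile normalization gave 4 in mTEChi (3 higher, 1 lower) and 5 in place of 8 for the genotype effect in mTEChi minus that in mTEClo. Of all tested genes it called 6064 higher and 4808 lower in the first, and 4559 and 3550 in the second. Leaving out 1 library at a time gave 1 to 2 for KO minus WT in mTEChi, 1 to 7 in mTEClo and 8 to 9 in cTEC. It gave 6 to 7 for WT mTEChi minus mTEClo, 4 to 8 for WT mTEChi minus cTEC and 4 to 6 for KO mTEChi minus cTEC, 6 to 9 for the genotype effect in mTEChi minus that in mTEClo, and 9 throughout for the other 4 comparisons. Of 1692 alternatives to 99 values of single genes, 1597 kept direction and call, 62 lost the call, 20 gained one and 13 changed sign. Signs changed under quantile normalization for KO minus WT in mTEChi (Tas1r3 0.68, Hmx2 1.29), WT mTEChi minus cTEC (Il25 -0.020, Hmx2 -0.27, Dclk1 -0.032) and KO mTEChi minus cTEC (Tas1r3 0.30), and without 1 library for Tas1r3 in KO minus WT mTEChi (range -0.16 to 0.15), Dclk1 in WT mTEChi minus cTEC (-0.17 to 0.44) and Tas1r3 in KO mTEChi minus cTEC (-0.31 to 0.35). The cause of these changes was not tested. With a replicate block the counts were those reported, except 9 in place of 8 for the genotype effect in mTEChi minus that in mTEClo. A replicate block within each genotype, chosen after seeing the data, gave 2 in place of 1 for KO minus WT in mTEChi (Trpm5 -0.85, adjusted p = 0.024), 7 in place of 5 in mTEClo (Trpm5 and Avil), 8 in place of 7 for WT mTEChi minus cTEC (Il25) and 9 in place of 8 for the genotype effect in mTEChi minus that in mTEClo (Gnat3); the other 7 counts were those reported, WT mTEClo minus cTEC among them. For KO minus WT such a block leaves differences between numbered sets out of the error. Over all 45 same-numbered pairs 7 correlations were above 0.1, and 9 of 18 libraries were closest to their own number. Depth is known only as aligned bases, and with 3 libraries per group the spread between libraries limits the precision.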

Other observations

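Paralogs of the tuft cell genes (Hmx3, Sh2d7, Alox5ap and some others stand in the lists above too) were measured as well. Of 22 paralogs with a value, 12 fell in KO mTEChi by limma, a share near the 52.8% of all tested genes. Of these paralogs 1 rose there, beside 9.57% of all tested genes. Dclk3 was at 3.35, 3.07 and 2.48 RPKM in WT mTEChi and at 0.159, 0.148 and 0.133 in KO mTEChi (log2 difference -3.63, adjusted p = 3.5e-09). Pou2f2 (-3.21), Hmx1 (-3.21), Gnat1 (-3.06), Gnat2 (-2.10) and the Il17 family genes Il17b (-4.97), Il17a (-3.15) and Il17f (-2.93) also fell there. The WT mTEChi means were 0.877 RPKM for Hmx1, 0.854 for Il17a, 0.991 for Il17f, 1.58 for Gnat2 and 5.80 for Il17b. The transducin gene Gnat1 had a mean of 2.04 RPKM and Pou2f2 one of 0.985 RPKM in WT mTEChi, and no other group mean of either exceeded 0.302 RPKM. Pou2f1, a widely expressed relative of Pou2f3, had group means between 3.73 and 4.72 RPKM. Il17c, an epithelial relative of Il25, rose in KO mTEClo, from 0.870, 1.05 and 0.629 RPKM to 3.68, 3.73 and 4.34 (2.10, adjusted p = 0.0047). Its WT mTEChi values were 4.66, 4.25 and 5.40 RPKM and overlapped those of KO mTEClo.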
